A study of Canis lupus familiaris with 29 samples.

Results

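The first 24 h of MDCKII culture on matrigel were set against day 0, the cells used for seeding, to describe which genes had changed by the first day of cyst growth. MDCKII is an established line of dog kidney epithelial cells, which grow as polarised sheets on filters and as hollow cysts in or on matrigel, a basement membrane extract. The 24 h group held the 2 libraries of wild-type cysts grown for 24 h on top of matrigel, replicates 2 and 3, and was compared with the 4 libraries of wild-type cells at day 0, replicates 1 to 4. These are 6 of 29 libraries in 13 groups. The others are wild-type 3D and 2D cultures at later days and cells with a knockdown of DENND5A or AVL9. No library was taken at 24 h without matrigel, so the shares of matrigel, time and reseeding in a difference were not tested. Both groups had the wildtype genotype and the same maintenance medium with fetal bovine serum, and neither carried a further treatment in the labels. All genes that reached 1 FPKM (fragments scaled to transcript length and to library size) in at least 2 of the 6 libraries were tested, which gave 10544 of 24223 genes. Nothing in the labels tells if replicates came from separate cultures. A p-value here reflects only how far all 29 libraries scatter within their groups, possibly for technical reasons. In the knockdown groups the titles put the number on the knockdown, so their scatter may include differences between knockdowns.

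Cells lifted from a dish and reseeded as single cells on a soft matrix lose their old contacts and form new ones. Serum and growth factor signals act within minutes to hours through immediate early genes, which encode short-lived transcription factors and phosphatases. YAP and TAZ are transcriptional co-activators that enter the nucleus in spread cells on stiff ground and leave it in crowded, rounded or softly supported cells. NRF2 drives genes against oxidants and electrophiles, and the aryl hydrocarbon receptor drives xenobiotic-metabolising enzymes such as CYP1A1. FOXO factors and the glucose sensor MondoA drive genes of nutrient restraint such as TXNIP.

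The 6 libraries were of similar breadth. The 24 h libraries had 10370 and 10394 genes at 1 FPKM or more, against 10163 to 10286 in the day 0 libraries. Read counts were not used here and absolute depth is unknown, but steps between low FPKM values gave depths, relative to day 0 replicate 2, of 0.901 and 1.02 at 24 h, against 0.47 in day 0 replicate 1 and 0.865 to 1.06 in the other day 0 libraries. Day 0 replicate 1 stood apart. It had 140 genes over 1 log2 unit above and 203 as far below the mean of the other 3, whereas each of the others had 47 to 66 above and 39 to 56 below. Of 10 kidney epithelial markers with a row of their own, 9 reached 1 FPKM (CDH16 did not), and their summed FPKM was 769.9 and 770.9 at 24 h, against 774.8 to 890.2 at day 0. None of 9 leukocyte markers reached 1 FPKM, with a summed level of 0.899 and 1.02 FPKM at 24 h against 0.605 to 1.08 FPKM at day 0, and PTPRC, ITGAM, CD3E, LCP1, SPI1 and AIF1 were listed at 0. Fibroblast markers summed to 23.1 and 27.0 FPKM at 24 h, against 16.7 to 33.6 FPKM at day 0, with 2 of 9 reaching 1 FPKM (COL5A1 and FBLN1) and DCN and THY1 listed at 0. Endothelial markers summed to 24.0 and 24.2 FPKM at 24 h, against 34.8 to 44.3 FPKM at day 0, nearly all of it from FLT1, with TEK, ERG and EMCN listed at 0.

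At 24 h 147 of the 10544 genes differed from day 0, which is 1.39% of those tested. Of these, 77 rose (0.73%) and 70 fell (0.664%), by limma on log2(FPKM + 1) with Benjamini-Hochberg adjustment at an adjusted p under 0.05. Without adjustment 14.3% of genes had a p under 0.05. In each of the 147 the 2 groups did not overlap. Over all genes tested, the groups did not overlap in 2073 that were higher at 24 h (19.7%) and 863 that were lower (8.18%). Most changes were small: 19 genes rose and 19 fell by 1 log2 unit or more, and 4 rose and 5 fell by 2 or more. The median difference over all genes was 0.06. On this scale the change of a gene with few FPKM is understated, and in bulk RNA fewer cells with a transcript cannot be told apart from less of it per cell.

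The spread of each gene was estimated within the groups of all 29 libraries. With the wild-type libraries alone 164 genes passed, 125 of them shared with the 147. With the 6 libraries alone 20 genes passed, and counts by list in that fit are given below. The count of 147 also depends on both 24 h libraries. Without replicate 2 of 24 h 19 genes passed, and without replicate 3 of 24 h 14 did. The group then has 1 library, which is assumed to vary like the other groups. Where 2 values are given for either library left out, the first is without replicate 2. The 11 genes past the test both ways were FOSB, FOS, EGR1, CYR61, DUSP1, AMOTL2 and RHOB, all lower, and CYP1A1, CA4 and 2 small nucleolar RNA features, all higher. Of the 147, 6 reached 1 FPKM in no day 0 library, CA4 and both small nucleolar RNA features among them, and 3 in no 24 h library, FOSB and ANKRD1 among them. Such genes entered the test only through the group where they are high and so had to differ in that direction. Without day 0 replicate 3 the count was 84, and without each of the other day 0 libraries it was 115 to 162. The balance of the 147 depends on scaling. Of all calls, 52.4% were higher at 24 h on the deposited scale, 37.1% after quantile normalization, 38.2% after median-ratio scaling and 63.3% with a batch term. The batch term is for 5 wild-type libraries that stand apart, of which day 0 replicate 1 is one. This grouping is not in the labels, so whether it is a true batch is unknown. All 147 genes kept their direction under every alternative in which they were tested. As the groups of these genes did not overlap, leaving out libraries or changing the filter could not reverse a direction. Only a rescaling or an added term in the model could.

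**Figure D1:**
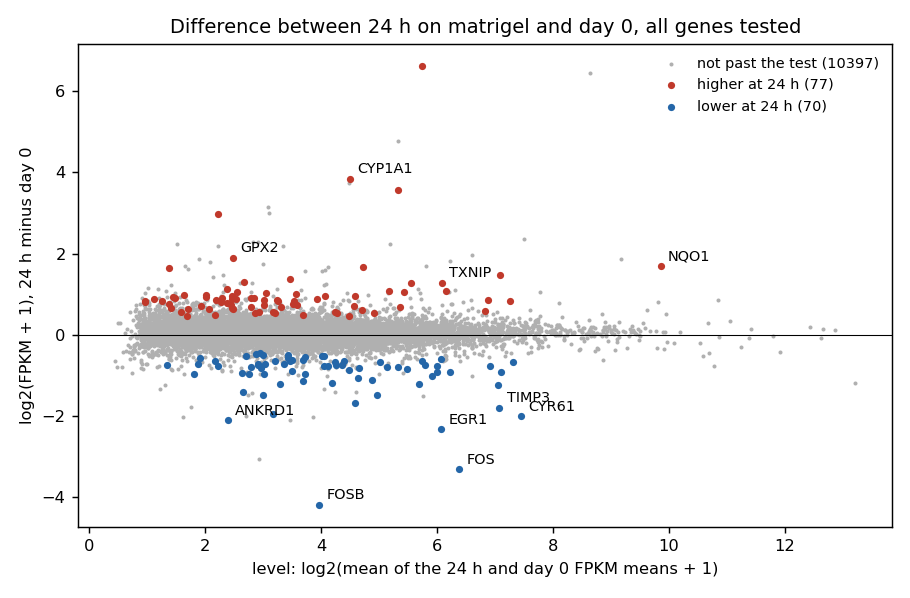
Each point is 1 of the genes tested, with its level over both groups on the x axis (log2 of FPKM + 1) and the difference of 24 h minus day 0 on the y axis (log2 of FPKM + 1). The 77 genes that rose are red, the 70 that fell are blue, and the remaining genes are grey, some of them with large differences that did not pass the test.

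Of the 147 called genes, 43 were members of the gene lists used here and 104 were in none. These lists were chosen with earlier results of these data known. Over all genes tested 0.73% rose and 0.664% fell, which is the share to set beside each count of members. Counts and shares are descriptions and no test of a list. Immediate early genes were lower at 24 h than at day 0. Of 24 tested, 7 fell (29.2%, beside 0.664% of all genes) and none rose, with a median difference of -0.49 against 0.06 over all genes. In the order of their adjusted p-values those that fell were FOS, FOSB, EGR1, DUSP1, JUN, ZFP36 and KLF6. FOS, a subunit of the AP-1 transcription factor, read 14.1 and 14.0 FPKM in the 24 h libraries, against 141, 127, 155 and 179 FPKM in day 0 replicates 1 to 4. The 24 h libraries were alike and lay far below every day 0 library, 10.7-fold lower in the mean. The fitted difference was -3.32 ± 0.19 on the log2 scale (SE; limma, Benjamini-Hochberg adjusted p = 8.4e-10). FOSB, its close relative, read 0.533 and 0.490 FPKM at 24 h, against 21.6, 15.1, 42.4 and 36.5 FPKM at day 0. Its fitted difference was -4.20 ± 0.28, and it entered the test only through the day 0 libraries.

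EGR1, a zinc finger factor induced by serum, read 27.8 and 15.9 FPKM at 24 h, against 92.4, 114, 104 and 133 FPKM at day 0. Its 24 h libraries differed more from each other than those of FOS did, but both were far under day 0 (-2.33 ± 0.20, limma adjusted p = 4.4e-07). DUSP1, a phosphatase that switches off stress and growth factor kinases, read 2.85 and 2.47 FPKM at 24 h and 10.9 to 17.1 FPKM at day 0 (-1.96 ± 0.23). JUN, the partner of FOS in AP-1, averaged 29.4 ± 1.08 FPKM at 24 h (SD, n = 2) and 71.9 ± 17.3 FPKM at day 0 (SD, n = 4). The fall was smaller for ZFP36, which destabilises cytokine mRNAs (-0.83 ± 0.16), and for KLF6, a zinc finger factor (-0.92 ± 0.21).

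The other 17 members did not pass the test. Among the most abundant of them, JUND read 129.5 and 116 FPKM at 24 h and 123 to 169 FPKM at day 0, and MYC, which drives growth genes, read 70.0 and 63.6 FPKM at 24 h and 82.3 to 126 FPKM at day 0. ZFP36L1, a relative of ZFP36, read 87.3 and 117 FPKM at 24 h and 84.2 to 104 FPKM at day 0. None of 13 genes of ERK feedback (the phosphatases DUSP4, DUSP5 and DUSP6, Sprouty and ETV genes among them) passed the limma test, with a median of -0.17, although 5 had an unadjusted p under 0.05. None of 9 EGF family ligands and receptors passed, with a median of -0.09 and 4 at an unadjusted p under 0.05. Without replicate 2 of 24 h the count of falling immediate early genes was 4 of 24, as JUN (-1.19), ZFP36 (-0.61) and KLF6 (-0.96) no longer passed. Without replicate 3 of 24 h it was 5, as JUN (-1.26) and KLF6 (-0.87) did not pass. KLF6 also did not pass without day 0 replicate 1 (-0.78) or replicate 3 (-0.89).

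**Figure D2:**
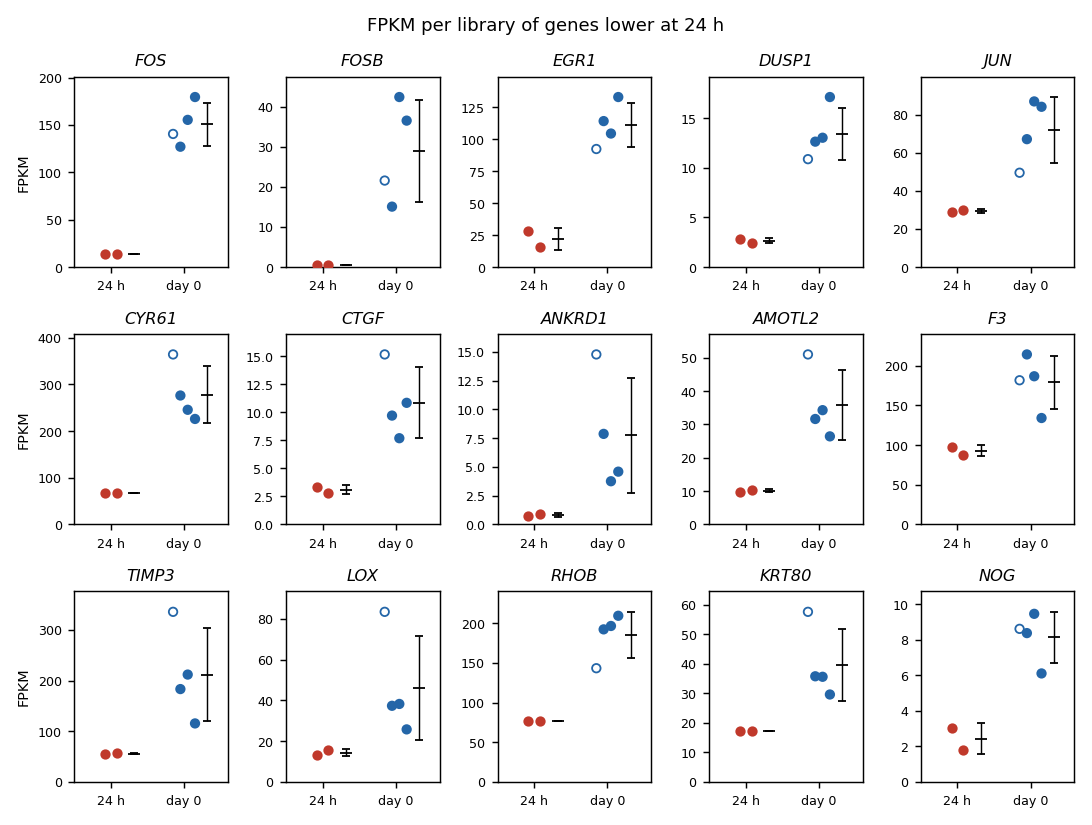
FPKM (y axes, from 0) of 15 genes that fell, in the 2 libraries of 24 h (red) and the 4 of day 0 (blue, with replicate 1 as the open circle), with the mean and SD of each group in black. In each panel both 24 h points lie below all 4 day 0 points, and day 0 replicate 1 is the highest of its group for ANKRD1, LOX and TIMP3, among others.

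Targets of YAP and TAZ were lower as well. Of 20 tested, 9 fell (45%, beside 0.664% of all genes) and none rose, and the median was -0.51. All 20 differences were below 0, beside 4069 of all 10544 genes. The 20 also stayed below 0 with quantile, median-ratio or batch adjustment. The groups did not overlap in 16 of the 20, beside 8.18% of all genes, but the list was chosen with earlier results of these data known. CYR61, a secreted matricellular protein of the CCN family, read 67.3 and 67.0 FPKM at 24 h, against 364, 276, 246 and 226 FPKM in day 0 replicates 1 to 4. The 24 h libraries were alike and 4.14-fold lower in the mean (-2.01 ± 0.29, limma adjusted p = 0.00083). Its relative CTGF read 3.36 and 2.84 FPKM at 24 h, against 15.2, 9.71, 7.69 and 10.8 FPKM at day 0 (-1.50 ± 0.22, limma adjusted p = 0.00095). AMOTL2, an angiomotin protein that binds YAP and restrains it, read 9.79 and 10.4 FPKM at 24 h, against 51.0, 31.6, 34.3 and 26.4 FPKM at day 0 (-1.69 ± 0.21, limma adjusted p = 0.00011).

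ANKRD1, a nuclear ankyrin repeat protein often used to read YAP activity, was under 1 FPKM at 24 h and entered the test only through day 0. It read 0.688 and 0.934 FPKM at 24 h, against 14.8, 7.86, 3.75 and 4.58 FPKM at day 0 (-2.11 ± 0.39). In CYR61, CTGF, AMOTL2 and ANKRD1 the highest value was in day 0 replicate 1, and without that library their differences were -1.87, -1.34, -1.51 and -1.77, all still past the test. F3, the tissue factor that starts coagulation, read 97.5 and 87.7 FPKM at 24 h and 134 to 214 FPKM at day 0 (-0.93 ± 0.18). PTPN14, a phosphatase that holds YAP in the cytoplasm, read 6.14 and 7.31 FPKM at 24 h and 10.2 to 13.2 FPKM at day 0 (-0.73 ± 0.13). NUAK2, a kinase, TGFB2, a TGF-beta ligand, and FJX1, a Golgi-resident or secreted protein, fell by 0.87, 1.15 and 0.89 on the log2 scale.

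Members that did not pass included TEAD1, the DNA-binding partner of YAP and TAZ, at 32.7 and 30.9 FPKM at 24 h and 28.8 to 37.4 FPKM at day 0. AJUBA, a LIM protein that restrains the LATS kinases, read 29.1 and 31.6 FPKM at 24 h and 32.0 to 39.7 FPKM at day 0. CRIM1, a membrane protein that binds bone morphogenetic proteins, read 47.8 and 43.9 FPKM at 24 h and 56.3 to 73.4 FPKM at day 0, a difference of -0.48. The groups overlapped for TEAD1 but not for AJUBA or CRIM1. The 9 falling members became 3 without replicate 2 of 24 h (CYR61, CTGF and AMOTL2, at -2.01, -1.59 and -1.65) and 2 without replicate 3 of 24 h (CYR61 and AMOTL2). Without 1 of the day 0 libraries 6 or 7 passed. FJX1 failed without any 1 of the 4, TGFB2 without replicate 2, 3 or 4 (-1.03, -1.17 and -1.13), and NUAK2 without replicate 1 or 3 (-0.85 and -0.87).

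Of 30 actin and contractility genes, 2 fell (6.67%, beside 0.664% of all genes) and none rose, with a median of -0.13. Differences were below 0 in 24 of the 30, beside 4069 of all 10544 genes. RHOB, an immediate early small GTPase of endosomes and actin, read 76.6 and 76.5 FPKM at 24 h, against 143, 192, 197 and 210 FPKM at day 0 (-1.25 ± 0.18, limma adjusted p = 0.00058). The abundant ACTG1, gamma-actin, read 1290 and 1467 FPKM at 24 h and 1432 to 2395 FPKM at day 0, and its groups overlapped. TMSB4X, which holds actin monomers, read 1067 and 1350 FPKM at 24 h and 1467 to 1796 FPKM in day 0 replicates 2 to 4, but 4493 FPKM in replicate 1. TAGLN2, an actin-binding protein of the transgelin family, read 799.5 and 818 FPKM at 24 h and 656 to 780 FPKM at day 0. None of 20 integrin and focal adhesion genes passed the limma test, with a median of -0.12 and 3 at an unadjusted p under 0.05.

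Of 26 basement membrane and matrix genes, 4 fell (15.4%, beside 0.664% of all genes) and none rose, with a median of -0.32. TIMP3, a matrix-bound inhibitor of metalloproteinases, read 54.9 and 56.8 FPKM at 24 h, against 336, 183, 212 and 115 FPKM at day 0. The groups were apart, but the day 0 libraries spread widely, with replicate 1 highest (-1.80 ± 0.37, limma adjusted p = 0.017). LOX, which crosslinks collagen and is also in the mesenchymal transition list, read 13.04 and 15.7 FPKM at 24 h, against 83.5, 37.3, 38.2 and 25.8 FPKM at day 0 (-1.49 ± 0.35). HSPG2, the basement membrane proteoglycan perlecan, read 45.2 and 47.6 FPKM at 24 h and 70.8 to 87.5 FPKM at day 0 (-0.77 ± 0.16). PLAUR, the urokinase receptor, read 4.96 and 4.38 FPKM at 24 h and 7.25 to 9.71 FPKM at day 0 (-0.73 ± 0.15).

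Structural chains of the basement membrane did not pass the test. LAMB3, the laminin beta-3 chain, read 93.0 and 89.6 FPKM at 24 h and 54.7 to 75.1 FPKM at day 0, higher in both 24 h libraries, while COL17A1, a hemidesmosomal collagen, read 87.5 and 83.3 FPKM at 24 h and 90.6 to 123 FPKM at day 0. THBS1, a matricellular protein, read 92.4 and 87.7 FPKM at 24 h and 104 to 149 FPKM at day 0. Of 10 genes of the epithelial to mesenchymal transition list, LOX was the 1 that fell, and vimentin (VIM) read 1344 and 1390 FPKM at 24 h and 1333 to 1702 FPKM at day 0. LOX did not pass without day 0 replicate 1 (-1.16) or replicate 3 (-1.53). With the 6 libraries alone no matrix gene passed. None of the 4 matrix genes passed without either 1 of the 24 h libraries, where TIMP3 gave -1.78 and -1.83, LOX -1.36 and -1.61, HSPG2 -0.73 and -0.81, and PLAUR -0.80 and -0.65.

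Of 19 TGF-beta and BMP genes, 3 fell (15.8%, beside 0.664% of all genes) and none rose, with a median of -0.35. NOG (noggin), a secreted antagonist of BMPs, read 3.06 and 1.82 FPKM at 24 h, against 8.62, 8.38, 9.47 and 6.11 FPKM at day 0 (-1.42 ± 0.22, limma adjusted p = 0.0012). INHBA, the activin A subunit, read 4.54 and 4.26 FPKM at 24 h and 6.56 to 13.8 FPKM at day 0 (-0.97 ± 0.20). The ligand TGFB2, also among the YAP and TAZ targets, read 7.55 and 6.33 FPKM at 24 h and 12.9 to 21.3 FPKM at day 0. FST (follistatin), which binds activin, was at 9.12 and 11.0 FPKM at 24 h and spread between 11.4 and 81.1 FPKM at day 0, and did not pass. ID3, a transcriptional inhibitor induced by BMPs, read 59.9 and 74.5 FPKM at 24 h and 30.1 to 47.8 FPKM at day 0, a difference of 0.89 ± 0.24 that did not pass (limma adjusted p = 0.070). Without replicate 2 of 24 h, NOG alone passed and INHBA (-1.003) and TGFB2 (-1.26) did not. Without replicate 3 of 24 h none of the 3 did, with NOG at -1.16, INHBA at -0.93 and TGFB2 at -1.04.

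The largest rise of a named protein-coding gene was in CYP1A1. Of 6 aryl hydrocarbon receptor genes tested, 3 rose (50%, beside 0.73% of all genes) and none fell. The median was 0.55 against 0.06 over all genes. CYP1A1, a monooxygenase of aromatic xenobiotics, read 41.2 and 40.9 FPKM at 24 h, against 0.513, 3.87, 3.01 and 1.45 FPKM in day 0 replicates 1 to 4. It was alike in both 24 h libraries, low in all day 0 libraries and 18.6-fold higher in the mean (3.85 ± 0.36, limma adjusted p = 1.8e-06). CYP1B1, a related enzyme, read 198 and 193 FPKM at 24 h, against 96.8, 122, 109 and 111 FPKM at day 0 (0.83 ± 0.18). NQO1, a quinone reductase controlled by both this receptor and NRF2, also rose.

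The groups overlapped for the receptor itself, with AHR at 20.8 and 22.3 FPKM at 24 h and 19.1 to 22.1 FPKM at day 0. Its partner ARNT read 16.8 FPKM in both 24 h libraries and 14.0 to 15.8 FPKM at day 0. TIPARP, a feedback ADP-ribosyltransferase, read 22.4 and 20.9 FPKM at 24 h and 13.1 to 21.9 FPKM at day 0. CYP1B1 did not pass without day 0 replicate 1 (0.77) or replicate 3 (0.83), nor without either 24 h library (0.81 and 0.85), and neither did NQO1 without either 24 h library (1.76 and 1.62). CYP1A1 passed under every alternative.

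NRF2 genes were higher at 24 h. Of 25 tested, 7 rose (28%, beside 0.73% of all genes) and none fell, and the median was 0.47. Of the differences 23 were above 0, beside 6475 of all 10544 genes. After quantile normalization or median-ratio scaling 21 of the 25 were above 0. The groups did not overlap, with 24 h higher, in 15 of the 25, beside 19.7% of all genes. This list too was chosen with earlier results of these data known. Those that rose were HMOX1, GCLC, GPX2, NQO1, SQSTM1, PIR and PTGR1. NQO1 read 1306 and 1443 FPKM at 24 h, against 219, 777, 577 and 331 FPKM at day 0. It was among the most abundant transcripts that rose, and the day 0 libraries differed more among themselves than the 24 h libraries did (1.69 ± 0.34, limma adjusted p = 0.015). HMOX1, which degrades haem, read 15.9 and 13.7 FPKM at 24 h, against 3.50, 8.45, 4.76 and 4.47 FPKM at day 0 (1.38 ± 0.23, limma adjusted p = 0.0030).

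Enzymes of glutathione and aldehyde handling were among them. GCLC, the catalytic subunit of the first enzyme of glutathione synthesis, read 94.8 and 94.2 FPKM at 24 h, against 31.5, 60.0, 47.8 and 42.8 FPKM at day 0 (1.07 ± 0.21). GPX2, a glutathione peroxidase of epithelia, read 8.53 and 6.96 FPKM at 24 h, against 0.841, 2.41, 2.08 and 0.544 FPKM at day 0 (1.90 ± 0.37). PTGR1, a reductase of lipid aldehydes and prostaglandins, read 182 and 203 FPKM at 24 h, against 31.0, 124, 100.1 and 56.5 FPKM at day 0 (1.48 ± 0.34). In GCLC, PTGR1 and NQO1 day 0 replicate 1 was lowest and replicate 2 highest. PIR, an iron-binding nuclear protein, averaged 64.4 ± 11.8 FPKM at 24 h (SD, n = 2) and 27.6 ± 11.3 FPKM at day 0 (SD, n = 4). SQSTM1 (p62), an autophagy receptor that releases NRF2 from KEAP1, read 144 and 156 FPKM at 24 h and 63.8 to 99.0 FPKM at day 0 (0.85 ± 0.18).

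The pentose phosphate enzymes PGD and TKT did not pass. PGD read 242 and 265 FPKM at 24 h and 162 to 207 FPKM at day 0, and TKT 219.7 and 212 FPKM at 24 h and 151 to 208 FPKM at day 0. Both were higher in each 24 h library than in any day 0 library. The count of NRF2 genes depends on the libraries in the fit. It was 0 without either of the 24 h libraries, where the 7 differences were 0.79 to 2.03, 11 without day 0 replicate 2 and 4 without the 5 libraries that stand apart. Without day 0 replicate 1, PIR did not pass (1.095), and without day 0 replicate 4, PIR (1.11) and PTGR1 (1.39) did not. With the 6 libraries alone the count of NRF2 genes was 0.

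**Figure D3:**
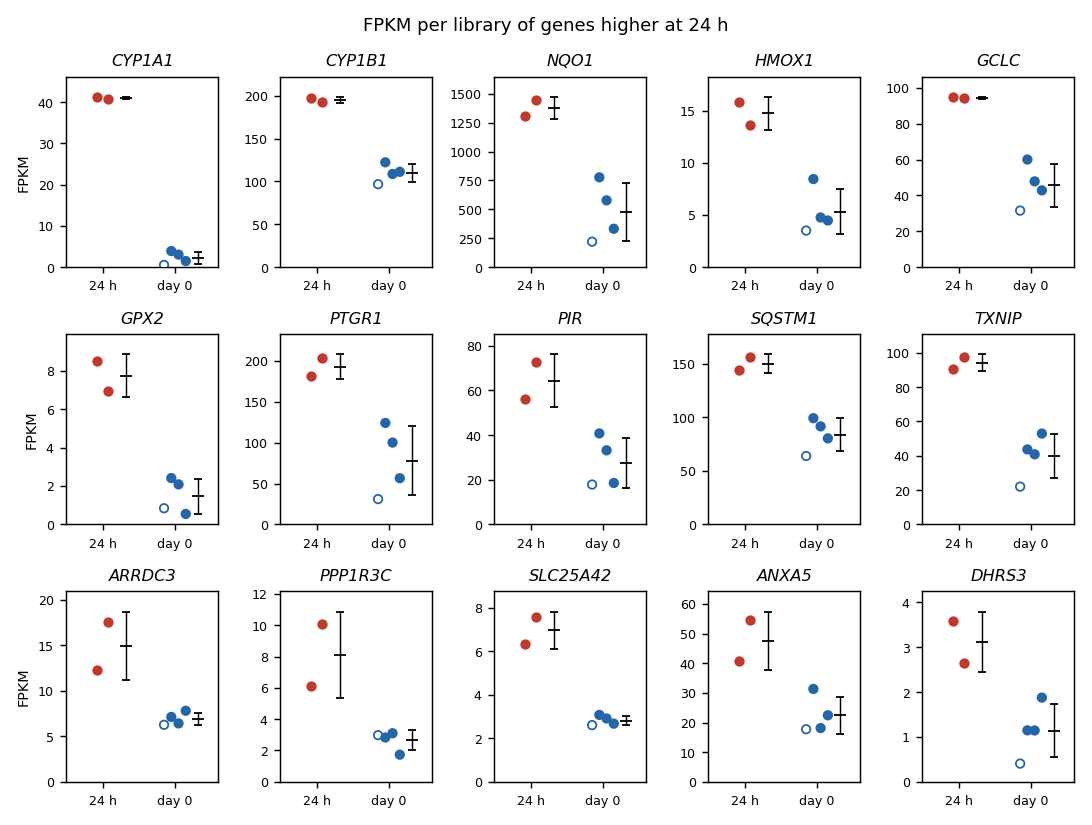
FPKM (y axes, from 0) of 15 genes that rose, in the 2 libraries of 24 h (red) and the 4 of day 0 (blue, with replicate 1 as the open circle), with the mean and SD of each group in black. Both 24 h points lie above all 4 day 0 points in each panel, and day 0 replicate 1 is the lowest of its group for CYP1A1, CYP1B1, HMOX1, GCLC, PTGR1, PIR, NQO1, SQSTM1 and TXNIP among others.

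Of 11 FOXO and MondoA targets, 3 rose (27.3%, beside 0.73% of all genes) and 1 fell (9.09%, beside 0.664%), with a median of 0.25. TXNIP, an arrestin that inhibits glucose uptake and thioredoxin, read 90.8 and 97.6 FPKM at 24 h, against 22.01, 43.7, 40.8 and 52.9 FPKM at day 0 (1.29 ± 0.24, limma adjusted p = 0.0092). Its relative ARRDC3, which directs receptors to degradation, read 12.3 and 17.6 FPKM at 24 h, against 6.27, 7.13, 6.42 and 7.81 FPKM at day 0 (0.99 ± 0.15, limma adjusted p = 0.00095). KLHL24, an adaptor of ubiquitin ligases, read 5.11 and 5.97 FPKM at 24 h and 1.74 to 3.59 FPKM at day 0 (0.79 ± 0.18). IRS2, an insulin receptor substrate that FOXO induces in liver, fell, with 4.69 and 5.71 FPKM at 24 h and 8.66 to 9.77 FPKM at day 0 (-0.72 ± 0.14). With the 6 libraries alone no FOXO or MondoA target passed.

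PPP1R3C, which targets a phosphatase to glycogen and raises its synthesis, was the 1 of 10 glycogen and carbohydrate storage genes that rose. It read 6.15 and 10.0 FPKM at 24 h, against 2.98, 2.83, 3.1005 and 1.73 FPKM at day 0 (1.30 ± 0.29). SLC25A42, a mitochondrial carrier of coenzyme A, read 6.36 and 7.57 FPKM at 24 h, against 2.61, 3.08, 2.92 and 2.68 FPKM at day 0, and had a small spread at day 0 (1.06 ± 0.15, limma adjusted p = 0.00049). FAM214A rose by 1.13 ± 0.21 and ANXA5, a calcium-dependent phospholipid-binding protein, by 1.07 ± 0.26. DHRS3, a retinaldehyde reductase, was the 1 of 8 retinoid genes that rose, with 3.59 and 2.65 FPKM at 24 h and 0.406 to 1.88 FPKM at day 0. ALDH1A1, which makes retinoic acid, read 289 and 295 FPKM at 24 h and 86.7 to 181 FPKM at day 0, a difference of 1.06 ± 0.31 that did not pass. DDB2, a DNA damage sensor, was the 1 of 19 p53 targets that rose (0.90 ± 0.22).

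With replicate 2 of 24 h left out, ARRDC3 and SLC25A42 passed and TXNIP (1.34), KLHL24 (0.88), IRS2 (-0.60), PPP1R3C (1.61), FAM214A (1.31), ANXA5 (1.28), DHRS3 (0.81) and DDB2 (0.92) did not. With replicate 3 of 24 h left out none of these genes passed, with ARRDC3 at 0.75, SLC25A42 at 0.95, TXNIP at 1.23, KLHL24 at 0.69, IRS2 at -0.84, PPP1R3C at 0.98, FAM214A at 0.95, ANXA5 at 0.87, DHRS3 at 1.14 and DDB2 at 0.87. Of the day 0 libraries, replicate 1 decided KLHL24 (0.63 without it), ANXA5 (0.98), DHRS3 (0.79) and DDB2 (0.80), each of which also failed without 1 to 3 others, and PPP1R3C did not pass without replicate 4 (1.16).

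Single members of other lists fell. KRT80, an epithelial keratin, was the 1 of 6 keratins and intermediate filaments that fell, with 17.1 FPKM in both 24 h libraries and 29.6 to 57.6 FPKM at day 0 (-1.12 ± 0.22). FLT1, a receptor for vascular endothelial growth factor, read 24.0 and 23.8 FPKM at 24 h and 34.6 to 44.1 FPKM at day 0 (-0.66 ± 0.15), while the other endothelial markers with a row of their own stayed under 1 FPKM. Neither passed without either 24 h library, with KRT80 at -1.12 in both cases and FLT1 at -0.67 and -0.66. FLT1 also failed without day 0 replicate 2 (-0.60) or 3 (-0.67).

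No change passed the test in the lists of cell division, polarity and junctions. None of 22 mitosis genes and none of 24 DNA replication genes was called, with medians of -0.02 and -0.03 (0.04 and 0.02 with the batch term) and 1 gene each at an unadjusted p under 0.05. CDK1, the mitotic kinase, read 81.1 and 102 FPKM at 24 h and 93.0 to 131 FPKM at day 0. RRM2, a subunit of the enzyme that makes deoxynucleotides, read 366 FPKM in both 24 h libraries and 262 to 401 FPKM at day 0. Of 13 polarity, 15 tight junction, 20 adherens junction and desmosome, 16 apical membrane and 24 primary cilium genes none was called, with medians of 0.09, 0.03, 0.01, 0.13 and 0.14. At an unadjusted p under 0.05 these lists had 1, 5, 0, 4 and 5 genes. E-cadherin (CDH1) read 194 and 184 FPKM at 24 h and 208 to 251 FPKM at day 0. Its partner CTNNB1, beta-catenin, read 225 and 229 FPKM at 24 h and 166 to 202 FPKM at day 0, a difference of 0.29 ± 0.14 that did not pass. PRKCI, the atypical kinase of the PAR complex, read 56.3 and 62.8 FPKM at 24 h and 72.0 to 85.8 FPKM at day 0 (-0.40 ± 0.11, limma adjusted p = 0.081).

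The abundant members of the junction and apical lists did not pass. CLDN7, a claudin, read 265 and 299 FPKM at 24 h and 237 to 289.8 FPKM at day 0, F11R, the adhesion molecule JAM-A, 142 and 136 FPKM at 24 h and 91.1 to 125 FPKM at day 0, and EZR (ezrin), which links actin to the apical membrane, 196 and 206 FPKM at 24 h and 177 to 239.6 FPKM at day 0. The 9 tubular transport genes tested had a median of 0.56 with none called and 6 at an unadjusted p under 0.05. The 19 lysosome and autophagy genes were all above 0, under each scaling tried, with a median of 0.28 and SQSTM1 called. Over all 10544 genes, 6475 were above 0, with a median of 0.06. Of 19 interferon-stimulated genes 18 were below 0, as under each scaling tried, with a median of -0.22, beside 4069 of all 10544 genes. None was called by limma, and none had an unadjusted p under 0.05, among these 19, 16 endoplasmic reticulum chaperone, 15 heat shock and 14 ribosomal protein genes. None was called either among 17 NF-kB and cytokine, 24 ATF4, 21 glycolysis and hypoxia, 19 respiratory chain, 17 CDK inhibitor and cyclin, 6 Wnt and 21 kidney transcription factor genes, where 4, 3, 1, 2, 4, 3 and 7 had an unadjusted p under 0.05. DENND5A read 5.25 and 5.30 FPKM at 24 h and 4.98 to 6.89 FPKM at day 0, and AVL9 read 20.01 and 22.3 FPKM at 24 h and 22.2 to 23.7 FPKM at day 0.

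**Figure D4:**
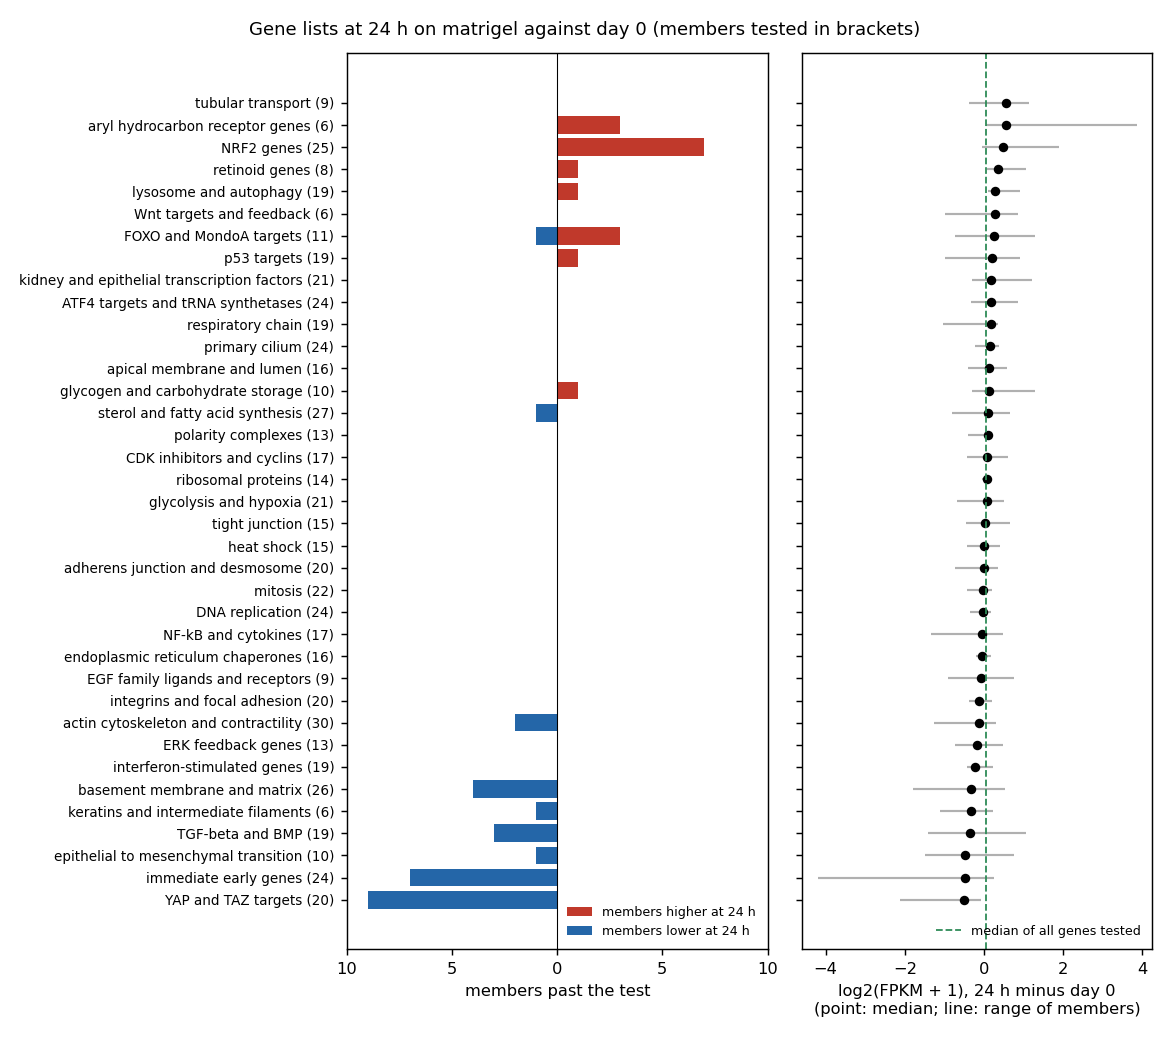
Left, the number of members of each list that rose (red, to the right) or fell (blue, to the left) at 24 h against day 0, with the number tested in brackets. Right, the median difference of each list (point, log2 of FPKM + 1, 24 h minus day 0) and the range of its members (grey line), beside the median of all genes tested (dashed); YAP and TAZ targets, with 9 members lower, are at the bottom.

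Levels at later days on matrigel were set beside those of the first day. Comparisons of later days with day 0 share the day 0 libraries, so levels are given side by side, without a test. Replicate 1 of day 3, replicate 1 of day 8 and the day 14 library are among the 5 libraries that stand apart. Their depths relative to day 0 replicate 2 were 0.578, 0.540 and 0.742. This grouping is thus mixed with time, and its part in these levels was not tested. FOS averaged 151 FPKM at day 0, 14.1 at 24 h, 29.4 at day 3, 20.4 at day 5 and 14.7 at day 8, and read 30.0 FPKM in the day 14 library. It stayed far below day 0 in all of them. EGR1 averaged 111 FPKM at day 0, 21.9 at 24 h, 49.9 at day 3, 63.4 at day 5 and 46.6 at day 8, and read 117 FPKM at day 14, where it was back in the range of day 0. CTGF averaged 10.9 FPKM at day 0, 3.103 at 24 h, 2.48 at day 3, 5.45 at day 5 and 7.09 at day 8, and read 9.55 FPKM at day 14.

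Other genes that fell had still lower means later. CYR61 averaged 278 FPKM at day 0, 67.2 at 24 h, 24.3 at day 3, 20.1 at day 5 and 18.4 at day 8. For LOX the means were 46.2 FPKM at day 0, 14.4 at 24 h, 2.46 at day 3, 0.881 at day 5 and 0.632 at day 8. For F3 they were 179 FPKM at day 0, 92.6 at 24 h, 22.9 at day 3, 11.9 at day 5 and 8.86 at day 8. TIMP3, INHBA, TGFB2, KRT80 and NOG also had lower means at days 3, 5 and 8 than at 24 h.

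Several of the genes that rose had their highest mean at 24 h. CYP1A1 averaged 2.21 FPKM at day 0, 41.0 at 24 h, 16.8 at day 3, 5.11 at day 5 and 2.45 at day 8. NQO1 averaged 476 FPKM at day 0, 1375 at 24 h, 342 at day 3, 140.04 at day 5 and 143 at day 8. HMOX1, GCLC, PTGR1 and PIR also had lower means at each later day than at 24 h. TXNIP instead had still higher means later, with of 39.8 FPKM at day 0, 94.2 at 24 h, 349.9 at day 3, 437 at day 5 and 377 at day 8, and ARRDC3, PPP1R3C, FAM214A, KLHL24 and DHRS3 likewise had higher means at days 3, 5 and 8 than at 24 h.

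**Figure D5:**
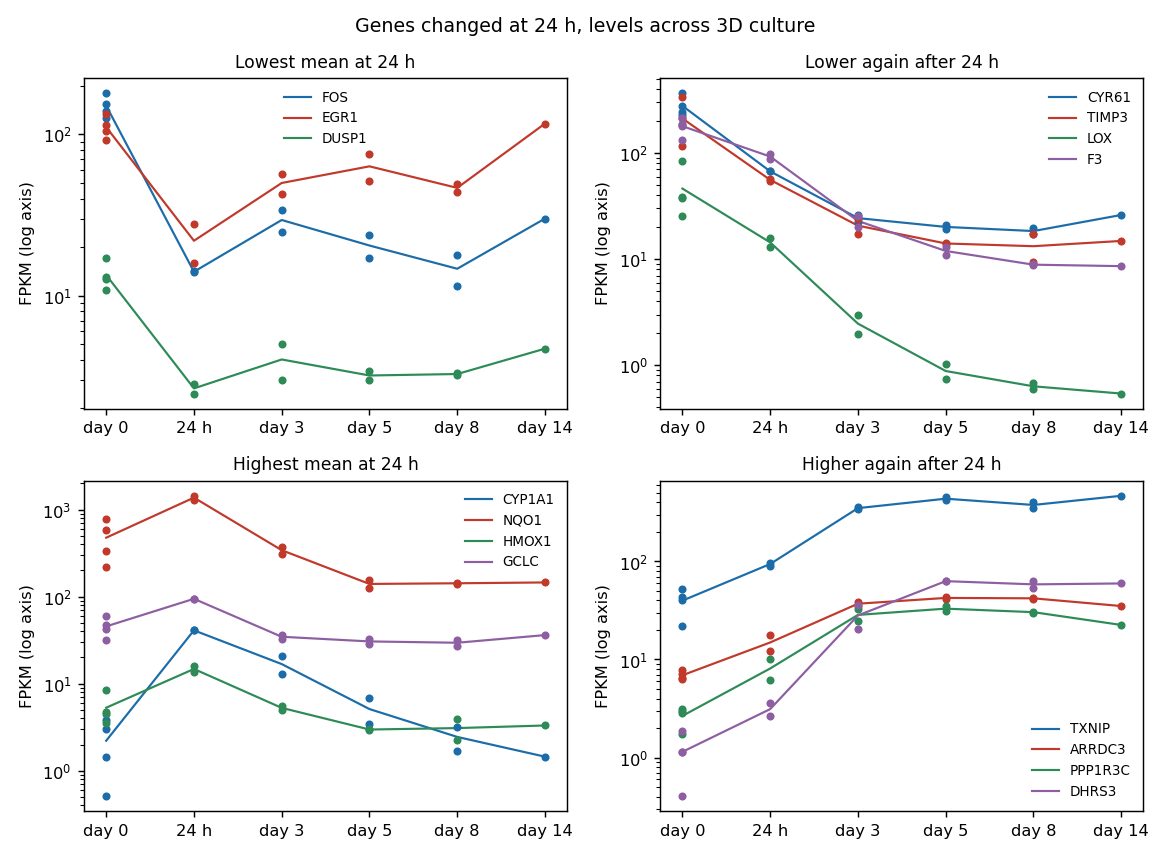
FPKM (log axis) of genes changed at 24 h in every library of wild-type cells at day 0, at 24 h and at days 3, 5, 8 and 14 on matrigel, with a line through the group means. Top left, genes lowest in mean at 24 h; top right, genes lower again at day 3; bottom left, genes highest in mean at 24 h; bottom right, genes higher again at day 3, such as TXNIP.

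Levels in the day 0 cells of the knockdowns, which had not been on matrigel, are given beside wild-type day 0 without a test. FOS read 35.0 and 48.3 FPKM in DENND5A-KD cells and 21.3 and 16.3 FPKM in AVL9-KD cells at day 0, all below the 127 to 179 FPKM of wild-type day 0. EGR1 read 46.5 and 47.7 FPKM in DENND5A-KD cells and 16.4 and 16.9 FPKM in AVL9-KD cells, against 92.4 to 133 FPKM in wild-type cells. CYR61 was not low in these libraries, with 326 and 400.4 FPKM in DENND5A-KD cells and 811 and 418 FPKM in AVL9-KD cells, against 226 to 364 FPKM in wild-type cells. CYP1A1 read 1.67 and 0.785 FPKM in DENND5A-KD cells and 0.588 and 2.27 FPKM in AVL9-KD cells, within the 0.513 to 3.87 FPKM of wild-type day 0.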

How the data were processed

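RNA was sequenced from 29 MDCKII libraries. The authors deposited 1 file of FPKM values per library, each holding 24223 dog genes with Ensembl IDs. Cufflinks 2.2.1 and HISAT2 2.1.0 are listed, without their roles, in the submitters' processing notes, as are the builds canFam3 and CanFam3.1. Libraries were made with a stranded mRNA kit, per the labels' protocols. Groups came from the sample labels. Depth was read relative to day 0 replicate 2 from steps between FPKM values under 0.15. A value of 0 in some library was found for 31 of the 5307 genes that average 10 FPKM or more.

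A linear model with 1 mean for each group was fitted to log2(FPKM + 1) of all 29 libraries with limma-trend (limma 3.58.1, R 4.3.3), leaving 16 residual degrees of freedom. The contrast of 24 h minus day 0 was tested 2-sided, with Benjamini-Hochberg adjustment over 10544 genes, 1339 of which lack a symbol of their own. All p-values named adjusted come from it. The genes named are the 12 largest differences each way among called genes whose higher group averages 5 FPKM or more, without overlap and with an own symbol, then up to 6 called members per list by adjusted p and up to 3 abundant members not called, plus DENND5A and AVL9. Some genes that met this rule are not reported here. Members and the 42 lists were chosen with earlier results of these data known. The 18 alternatives were quantile and median-ratio scaling, a pseudocount of 0.1, no filter and a stricter filter (a mean of 5 FPKM), the 6 libraries alone, wild-type libraries alone, 5 libraries left out or given a batch term, 2 replicate blocks, a robust prior and each of the 6 libraries left out. The fit was tested on simulated data. Files were read and figures drawn in Python 3.11.15 (pandas 2.3.3, numpy 2.4.6, matplotlib 3.10.9). No sequences or coordinates are given, since the gene table used is of another build.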

Additional observations from a re-analysis of the deposited data

Results flagged for a closer look

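The 4 day 0 values of each gene described and of the library measures, 100 sets in all, were searched for a library far from the other 3 by Dixon's criterion, and 2 were found. Chance alone gives about 1 in 20. TMSB4X, which binds actin monomers, read 4493 FPKM in day 0 replicate 1 and 1467 to 1796 FPKM in the other 3 day 0 libraries, beside 1067 and 1350 FPKM at 24 h. This is the library with the lowest relative depth of the 6, 0.47. VIM, the intermediate filament protein vimentin, read 1333 FPKM in day 0 replicate 4 and 1643 to 1702 FPKM in the others, beside 1344 and 1390 FPKM at 24 h. Neither gene passed the test at 24 h.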

How the results depend on the processing

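The direction of all 147 genes held under each of the 18 alternatives in which they were tested, but their number did not. Since the groups of these genes did not overlap, only a rescaling or an added term could have reversed a direction. Quantile normalization gave 229 calls (144 lower), median-ratio scaling 359 (137 higher, 222 lower) and the batch term 221 (140 higher), while the stricter filter left 51 higher. With the 6 libraries alone 20 passed (7 higher, 13 lower), 17 of them shared with the 147. In that fit 4 immediate early, 3 YAP and TAZ, 0 matrix, 0 NRF2, 1 aryl hydrocarbon receptor, 0 FOXO and MondoA and 1 TGF-beta and BMP genes passed. The TGF-beta and BMP count was 5 with median-ratio scaling and 1 with a pseudocount of 0.1, and the NRF2 count was 4 without the 5 libraries that stand apart. The cause of these differences was not tested.

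Leaving out each library in turn gave 14 to 162 calls, 4 to 108 higher and 10 to 71 lower. By list the range was 4 to 8 immediate early genes, 2 to 7 YAP and TAZ targets, 0 to 4 matrix genes, 0 to 11 NRF2 genes, 1 to 3 aryl hydrocarbon receptor genes, 0 to 3 FOXO and MondoA targets and 0 to 3 TGF-beta and BMP genes.

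Replicate numbers 2 and 3 occur in both groups. Deviations from the group means correlated with r of 0.21 for number 2 and 0.07 for number 3, so the pairing is not shown. With 2 libraries at 24 h their deviations mirror each other, so these are not independent checks. With the replicate number as a block in the 6 libraries alone, which leaves 1 residual degree of freedom, 590 genes passed (325 higher, 265 lower), with 15 immediate early, 10 matrix and 6 TGF-beta and BMP genes. Day 0 replicates 1 and 4 have no partner at 24 h, so that difference rests on replicates 2 and 3. With the block over the replicated wild-type groups 149 passed, and 4 NRF2 genes.

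Of 1139 values of the 64 called genes named here under the alternatives, 890 stayed past the test, 249 did not and 0 changed sign, and 11 of the genes passed in each alternative that tested them. A sign could change only under a rescaling or an added term, as said above.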

Other observations

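Further genes that passed the limma test lie outside the naming rule and were chosen after their values were seen. Of those that fell, EDN1 (endothelin-1) read 38.4 and 39.7 FPKM at 24 h and 74.7 to 86.3 FPKM at day 0, and LIFR, the receptor for leukaemia inhibitory factor, 10.2 and 9.94 FPKM at 24 h and 19.9 to 32.7 FPKM at day 0. LIFR and EDN1 had differences of -1.18 ± 0.19 and -1.02 ± 0.17. The oncostatin M receptor OSMR fell by 0.77, the growth factors PDGFA and PDGFB by 0.50 and 0.56, and RND3, which opposes RhoA, by 0.98 on the log2 scale.

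Of those that rose, PLIN2, which coats lipid droplets, read 52.4 and 60.6 FPKM at 24 h and 18.6 to 35.4 FPKM at day 0. CPT1A, which admits fatty acids to mitochondria, read 30.1 and 31.0 FPKM at 24 h and 16.5 to 23.9 FPKM at day 0, and ACADS, a short-chain acyl-CoA dehydrogenase, 13.8 and 14.2 FPKM at 24 h and 8.29 to 10.3 FPKM at day 0. The carbonic anhydrase CA13 rose by 0.89 ± 0.18. Its relative CA4 was 2.85 and 3.04 FPKM at 24 h and 0.0819 to 0.410 FPKM at day 0, so it entered the test only through the 24 h libraries. MXD4, an antagonist of MYC, HBP1, a repressor of cell cycle genes, PDCD4, an inhibitor of translation, YPEL3 and the BH3-only protein BMF rose by 0.75 to 0.96, and NR5A2, a nuclear receptor, by 0.85. Levels at day 0 were low for MXD4 (0.499 to 1.29 FPKM) and BMF (0.294 to 1.47 FPKM). In MXD4, HBP1, PDCD4, YPEL3, BMF and NR5A2 replicate 1 had the lowest day 0 value. Apart from CA4, none of these genes passed without replicate 3 of 24 h, and without replicate 2 of 24 h MXD4 alone did (0.94). Without replicate 3 the differences ran from 0.48 to 1.00 for those that rose and from -1.16 to -0.43 for those that fell. Without day 0 replicate 1, OSMR (-0.67), PLIN2 (0.89), CPT1A (0.53), ACADS (0.43) and HBP1 (0.61) did not pass. Without replicate 2, OSMR (-0.76) and PDGFA (-0.47) did not, without replicate 3, PDGFA (-0.49), PDGFB (-0.55), PLIN2 (1.05), CPT1A (0.59) and HBP1 (0.73), and without replicate 4, OSMR (-0.78) and PDGFA (-0.51).

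The feature ENSCAFG00000022178, a SNORD33 small nucleolar RNA, read 142 and 67.3 FPKM at 24 h and was listed at 0 in the other 27 libraries of the series. ENSCAFG00000021854, a SNORA44 feature, read 4.63 and 10.1 FPKM at 24 h and was also listed at 0 in the other 27. Both entered the test only through the 24 h libraries. No feature was at 1 FPKM or more in both libraries of any other group of 2 and at 0 in all the rest. The libraries were made from mRNA, and whether these values are small nucleolar RNA was not tested. ENSCAFG00000031288, named NEAT1_2 together with other features, read 54.4 and 85.1 FPKM at 24 h, against 0, 16.1, 3.94 and 12.8 FPKM at day 0, and averaged 170.4 FPKM at day 3. Its difference of 3.56 ± 0.80 passed, but not without day 0 replicate 3 (3.48) or either 24 h library (3.88 and 3.25).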
